A study of Bos taurus with 20 samples.

Results

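The core transcripts of bull spermatozoa are taken here as the genes with a normalised signal of 1 or more in every one of 18 sperm libraries. Of 27607 genes in the table, 171 met that condition, and 164 of them are described here. The other 7 met it too and were set aside by identifier. The values that chose the core are the same values whose level, spread and correlation are given below, so those are descriptions without a test.

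The study compared mRNA in spermatozoa of Holstein-Friesian bulls classed as High or Low for fertility, with 10 libraries per class. Bulls were assigned to a class with a statistical model adjusted for the animal. Each library came from 1 bull, from frozen-thawed semen pooled over 3 ejaculates, with RNA extracted in Trizol, cleared of genomic DNA and copied with a NEBNext kit for single cells or low input. The labels name no treatment, age or batch. The profiles labelled High 9 and Low 8 (class and bull number) were identical for every gene, so neither entered the rule or the comparisons, leaving 9 High and 9 Low bulls.

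Late in spermatogenesis the nucleus of the male germ cell is packed tightly, largely by protamines in place of histones, and transcription stops. The RNA found in ejaculated sperm is therefore mostly carried over from earlier germ cell stages, and much of it is broken into fragments. Kits for low input copy RNA to cDNA and amplify it before sequencing, and a transcript near the limit of detection can be lost at random in that step. The table gives Ensembl identifiers without symbols, and none of them (0) matched the 37063 genes of the reference table. The genes are accordingly named by identifier, with no statement of function, and markers of sperm, leukocytes or duct epithelium could not be checked. In such bulk samples, fewer cells carrying a transcript and less of it per cell cannot be told apart.

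The signal is a read count multiplied by 1 factor per library, and is not corrected for transcript length. Levels of different genes are thus levels of signal, not of molecules. Read totals ran from 9.43 M to 49.5 M reads per library (M, mega), and genes above 0 from 708 to 3720. The Low 11 library stood apart. Its median core signal was 644, against 1085 to 2018 in the other 17, its values ranked core transcripts with a Spearman rho of 0.516 against the median of the other bulls (0.709 to 0.903 for the rest), and 55 of the 164 transcripts had their lowest value there. Its summed signal over all genes was also the lowest, 562479 against 809426 to 1.395e+06 in the others. Its median core signal and the lowest values were not corrected for that, while the rho does not depend on such a scale. Results that rest on Low 11 are given with and without it where both were computed.

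Core transcripts were 4.41% (Low 18) to 23.2% (High 2) of the genes above 0 in a library and supplied a larger part of its signal. They made up 45.5% ± 4.30 (SD, n = 18) of the summed signal, with a lowest share of 38.7% in Low 11 and a highest of 52.6% in High 2. In High bulls the share was 43.0% at the lowest, 48.7% at the median and 52.6% at the highest. In Low bulls it was 38.7%, 42.5% and 51.4%. The ranges overlapped, but Low 1, Low 4, Low 11, Low 13 and Low 18, at 38.7% to 42.5%, lay under every High bull. The other Low bulls lay within the High range. Genes above 0 had a median of 1785 in High and 2199 in Low, and their part in the share was not tested. No test was made between the classes, since the members were chosen on these values. Without Low 11 the Low mean was 44.1% ± 4.36 (SD, n = 8), beside 47.5% ± 3.20 (SD, n = 9) in High. Of the 100 most abundant genes of each library, between 59 and 79 were core transcripts. High 2, with 708 genes above 0, drew 52.6% of its signal from the core, and Low 18, with 3720 genes, drew 39.9%, while Low 11 combined 879 genes with the lowest share of all.

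**Figure D1:**
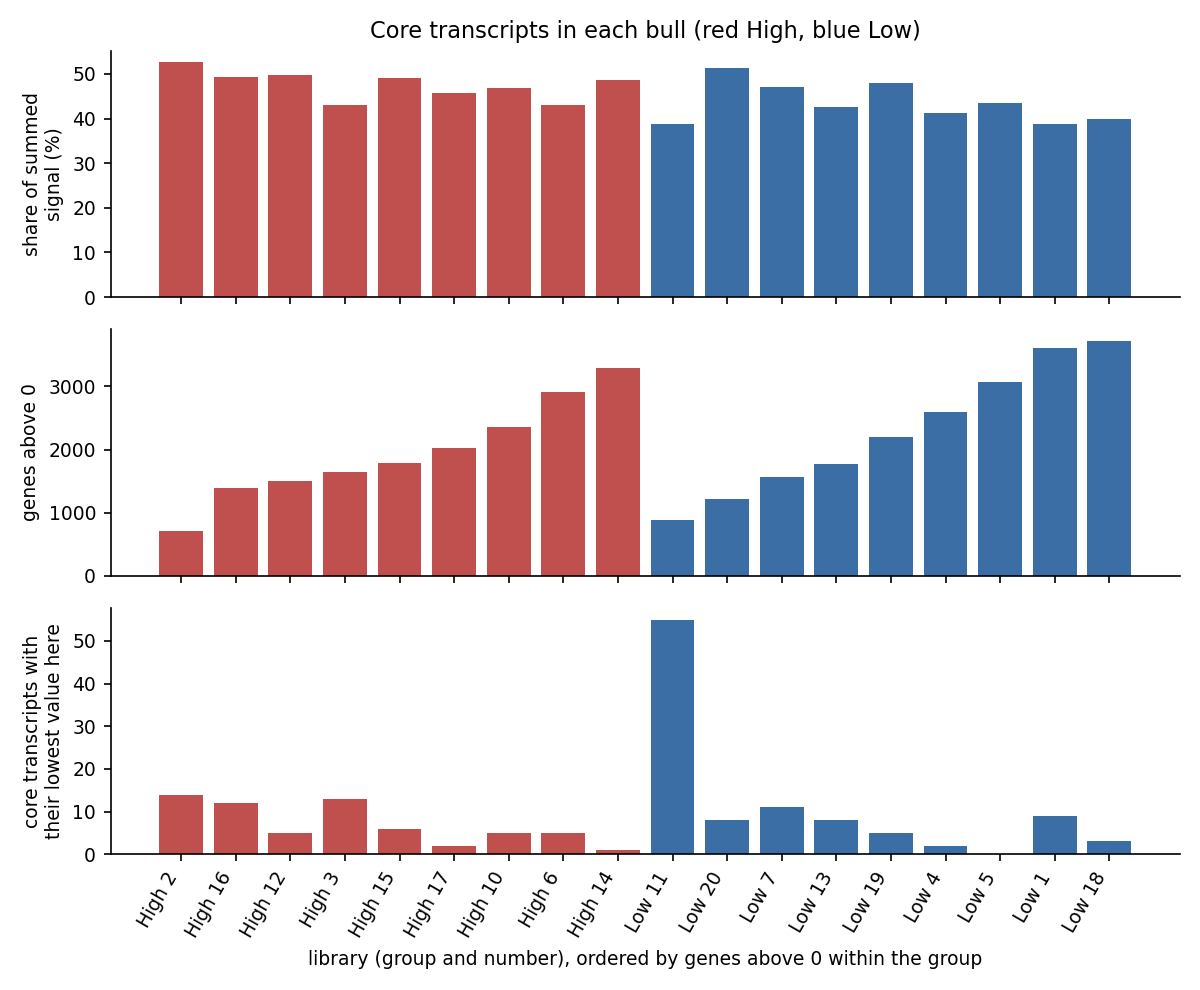
Share of the summed signal held by the 164 core transcripts (top, percent), genes above 0 (middle) and the number of core transcripts whose lowest value of 18 lies in that library (bottom), 1 bar per bull, High in red and Low in blue, ordered by genes above 0 within each class. The share stays between 38.7% and 52.6% while genes above 0 range from 708 to 3720, and 55 transcripts have their lowest value in Low 11.

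The core fell into 2 levels with nothing between them. For 156 transcripts the median signal over 18 bulls lay between 135 and 33029, and for 8 it lay between 2.86 and 6.56. Median signal over all 164 was 1432 (quartiles 782 and 2989). The 10 transcripts with the largest mean share supplied 15.1% of a library's signal, and the 82 with the smallest supplied 6.54%. Of 131 genes in the table with a median signal of at least 1000, 100 were core transcripts and 7 were the genes set aside. The rule therefore gathers most, but not all, of the strong genes.

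**Figure D2:**
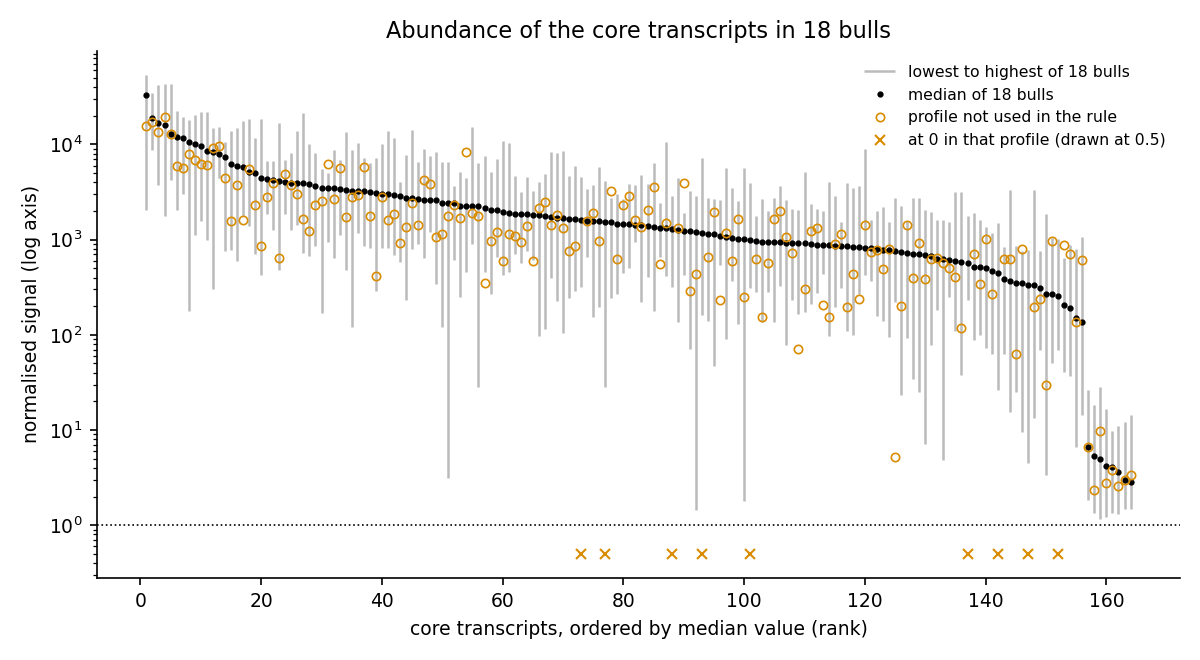
Normalised signal (log axis) of the 164 core transcripts ordered by median. Black points are medians and grey lines run from the lowest to the highest of 18 bulls. Open circles show the profile not used in the rule, crosses mark the 9 transcripts at 0 in it, and the dotted line is the threshold of 1. The 8 transcripts at the right, with medians from 2.86 to 6.56, stand apart from the other 156.

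ENSBTAG00000000421 carried the highest median signal of the core. Its values in High bulls were 13593 at the lowest, 34040 at the median and 54023 at the highest. In Low bulls they were 2058, 32018 and 47718, with the lowest in Low 11 and the next Low value at 11842. It was among the 10 most abundant genes in 16 of 18 libraries, the most of any core transcript, and the classes overlapped.

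ENSBTAG00000018125 ranked next by median, at 19153, and was among the steadiest. It ran from 10489 to 34762 in High (median 20744) and from 8741 to 23763 in Low (median 16572). No other core transcript had so high a lowest value. It was among the 10 most abundant genes in 15 libraries.

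The next places went to transcripts that moved much more. ENSBTAG00000000335 ran from 6018 to 29392 in High (median 11793) and from 3726 to 42195 in Low (median 18262). ENSBTAG00000020264 ran from 9339 to 43226 in High (median 16299) and from 1762 to 37494 in Low (median 16078). For both, the bulls of the classes were interleaved. ENSBTAG00000040477 (median 12903) owed its top value of 43568 to High 15, where the next bull had 20502. ENSBTAG00000051831 had a median of 11931, and ENSBTAG00000000375 one of 11608. ENSBTAG00000038298 (median 10593) was at 176 in Low 11, while all other bulls had at least 3819.

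The 8 trace-level transcripts were seen in every bull although their signal was low. This subset was picked out after the values were seen, as the members with a median under 10. Of 201 genes with a median above 0 and under 10, 28 were above 0 in all 18 libraries (8 of them the trace-level core) and 126 in only 9 or 10. Of 653 genes with a higher median, from 10 to 100, only 2 were above 0 in all 18. A gene at 0 in many libraries has a low median for that reason alone, so these counts do not compare detection at equal signal.

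Values of the trace-level transcripts rest on small but countable numbers of reads, from 18 upward in any library. ENSBTAG00000053324 had the lowest value of the core, 1.16 in High 3, and ran from 1.16 to 28.6 in High (median 4.82) and from 1.39 to 11.1 in Low (median 5.19). ENSBTAG00000051661 had the next lowest, 1.23 in High 6, and ran to 16.6 in High (median 4.24) and from 2.12 to 8.29 in Low (median 4.19). The classes overlapped in both, and High held the lowest and the highest value. Just outside the threshold lay ENSBTAG00000013395, at 0.963 in High 15 with a median of 964, and ENSBTAG00000049728, at 0.934 in High 2 with a median of 2.30. The core thus ends on a strong gene that nearly vanished in 1 bull as well as on another trace-level gene.

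The trace-level transcripts varied together between bulls. All 28 pairs among them had a positive Spearman rho over 18 bulls, from 0.220 to 0.930 with a median of 0.689, while pairs among all 164 had a median of 0.0774. Within High the median of the 28 was 0.733, within Low 0.642, and without Low 11 it was 0.672. The geometric mean of the 8 was 15.2 in High 17 and 8.61 in Low 7, and it was 1.71 in Low 11 and 1.85 in High 6. High 17 held the highest value of 6 of the 8. That library had 9.90 M reads. Across bulls, rho of the single transcripts with the read total lay between -0.457 and 0.0217 (description over 18 libraries that share 1 scaling factor each). The part of depth in this pattern was not tested.

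All 8 carried identifiers numbered from 49055 to 53324. Numbers of 48000 or more, a boundary set after the values were seen, were held by 15 of the other 156 core transcripts (9.62%) and by 25.8% of the table. Whether these models share sequence, and therefore reads, with stronger genes could not be checked by identifier. The nearest transcript among the other 156 was ENSBTAG00000012135 for 4 of the 8, with the closest match at a rho of 0.802 for ENSBTAG00000051661, whose signal was 0.0964% of it at the median (0.0393% to 0.325%).

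Spread between bulls was large even for these shared transcripts. The SD of the log2 signal over 18 bulls had a median of 1.05 (quartiles 0.838 and 1.32), so that 1 SD at the median corresponds to 2.07-fold. The ratio of highest to lowest bull had a median of 16.8 and was 3.39 for the steadiest transcript. SD was over 1 for 93 of the 164 and over 2 for 4. Read counting alone would give an SD of 0.0127 at the median and 0.223 at most, and in 156 transcripts it was under 0.1 of the SD found. Counting error was small beside the spread between bulls. It leaves out the error of amplification, since copies made by PCR are not independent molecules. With 1 library per bull, differences between bulls and differences between libraries cannot be told apart.

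The steadiest transcripts lay at a broad range of levels. ENSBTAG00000012135 had the lowest SD, 0.474, with values from 3123 to 6553 in High (median 4178) and from 1867 to 6654 in Low (median 4436). ENSBTAG00000006971 followed with 0.492, from 6521 to 12527 in High (median 9800) and from 4464 to 15138 in Low (median 7520). In both, the High bulls lay inside the wider range of the Low bulls. ENSBTAG00000018125, described above, had an SD of 0.548. ENSBTAG00000000695 had one of 0.560 at a median signal of 1438, from 1084 to 2315 in High and from 940 to 3759 in Low. Without Low 11, its lowest bull, ENSBTAG00000012135 had an SD of 0.378.

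In the most variable transcripts 1 bull lay far below the rest. ENSBTAG00000008457 had the highest SD, 2.54, with a signal of 1.45 in Low 11 against 477 to 2895 in the other Low bulls, and 86.8 in High 16 against 856 to 2862 in the other High bulls. Without Low 11 its SD was 1.16. ENSBTAG00000000222 (SD 2.47) was at 3.15 in Low 11 and between 220 and 6518 in the other 17 bulls, where its SD was 1.13. In both, Low 11 stood far below every other bull.

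ENSBTAG00000053875 (SD 2.42) showed the same form in another bull, with 1.79 in High 2 and 571 to 5596 elsewhere, and an SD of 0.895 without that bull. ENSBTAG00000018636 (SD 2.06) was at 3.33 in High 16 and between 27.0 and 1873 in the others. Its SD without High 16 was still 1.49. Among these 4 transcripts the single low bull was thus Low 11, High 2 or High 16.

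Such single low bulls recurred through the core. In 25 transcripts the lowest bull lay over 2 log2 units under the next, while the highest bull lay that far above the next in 1. Low 11 was that lowest bull for 12 of the 25 and High 16 for 5. Signal was low in Low 11 as a whole. Its summed signal over all genes was the lowest (562479), and its core transcripts stood at a median of -1.11 log2 from the median of the other 17 bulls. The gaps were not corrected for that. Omitting each transcript's lowest bull lowered the median SD from 1.05 to 0.868, and omitting Low 11 for all lowered it to 0.946. A measure that gives little weight to single bulls, the interquartile range scaled to match the SD of a normal distribution, gave a median of 0.863.

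SD was weakly related to level. Across the 164 transcripts, which are not independent, the Spearman rho of SD with median signal was -0.216. The median SD was 1.2 among the 41 transcripts with the lowest medians and 0.940 among the 41 with the highest. Genes seen in fewer bulls were compared in the bulls where they were at 1 or more. Among 116 genes at 1 or more in 17 of 18 bulls the median SD over those bulls was 1.18, among 364 genes in 14 to 16 bulls 1.26, and among 807 genes in 9 to 13 bulls 1.25. These SDs leave out the bulls under 1, so no test was made against the core.

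Most genes just short of the core were missing from the libraries poorest in genes. Of the 116 genes that missed the core by 1 library, 48 were missing only in Low 11 and 33 only in High 2, which had 879 and 708 genes above 0. High 14, High 17, Low 5 and Low 18 were each the missing library for 0 genes. In 103 of the 116 the gene was at exactly 0 in that library, although the median signal of these genes over the 18 bulls was 498. Leaving Low 11 out of the rule would bring the core from 164 to 212 transcripts.

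The profile labelled both High 9 and Low 8 took no part in choosing the core, and 155 of the 164 transcripts were at 1 or more in it. That is 94.5%, against 81.0% of the 116 genes at 1 or more in 17 bulls, 76.4% of the 123 in 16 bulls and 58.5% of the 241 in 14 or 15. The median signal of these groups of genes fell in the same order, at 1432, 498, 263 and 150. Detection at equal signal was not compared. The core supplied 45.0% of its signal, near the mean of the 18 libraries, with 1247 genes above 0. Over the 155 transcripts seen there, rho with the median of the 18 bulls was 0.798.

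The other 9 were at exactly 0 in the profile. Their medians over the 18 bulls ran from 257 to 1622, beside a core median of 1432, and their SDs from 0.742 to 1.70. ENSBTAG00000016779, for example, had a median of 1532 and was at 0 in that profile. All 8 trace-level transcripts were present, between 2.36 and 9.74, and within the range of the 18 bulls. In all, 140 of the 164 lay within that range, 6 above it, 9 below it but above 0, and 9 at 0. ENSBTAG00000021346 lay farthest above in ratio among the 6, at 3952 against a highest bull of 1894, and was singled out after its value was seen.

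Correlations between pairs of core transcripts across bulls were of both signs, with a small positive median and tails on both sides. Over 13366 pairs the Spearman rho on 18 libraries had a median of 0.0774, with quartiles of -0.143 and 0.290. It was over 0.5 in 8.43% of pairs and under -0.5 in 2.96%. Scaling matters here, since all values of a library share 1 factor. When each library was centred on the median of its core transcripts, the median rho was 0.0134, 7.25% of pairs were over 0.5 and 6.28% under -0.5. Without Low 11 the shares were 7.35% and 4.13%.

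The correlations were compared between High and Low bulls. Across the 13366 pairs, rho in the 9 High bulls and rho in the 9 Low bulls correlated with a Pearson r of 0.204, a description over pairs that share transcripts. Of the 509 pairs over 0.7 in High, 18.5% were over 0.7 in Low as well, where 6.10% of all pairs were. Of the 815 pairs over 0.7 in Low, 11.5% were over 0.7 in High, where 3.81% of all pairs were.

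The strongest pairs held in both classes. ENSBTAG00000043979 and ENSBTAG00000053468 had the highest rho, 0.963 (Pearson r of log2 signal 0.936), with 0.950 in High and 0.950 in Low. The signal of the first was between 0.183 and 0.560 of the second in every bull, a narrow band beside the range of either alone (111 to 3910 and 339 to 8411). Without Low 1 and Low 20, the bulls farthest from the median of the first, rho was 0.947. ENSBTAG00000003280 and ENSBTAG00000011233 had a rho of 0.957 (r 0.934), with 0.917 in each class and 0.941 without Low 7 and High 2. The third pair, ENSBTAG00000051661 and ENSBTAG00000051999, belonged to the trace level, with a rho of 0.930 (r 0.888), 0.9 in High and 0.950 in Low. These pairs were chosen as the extremes of 13366 over the same bulls, so they carry no test. Their values within a class are no independent check either.

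The most opposed pairs all involved ENSBTAG00000020164. Its rho was -0.845 with ENSBTAG00000005202 (r -0.781), -0.837 with ENSBTAG00000012775 (r -0.708) and -0.833 with ENSBTAG00000043979 (r -0.718). ENSBTAG00000020164 ran from 3001 to 22163 in High (median 9232) and from 1000 to 19089 in Low (median 6955). ENSBTAG00000005202 was 7.46 times as strong as it in Low 11 and 0.0340 times in High 16. In both classes each of the 3 pairs was opposed, from -0.883 to -0.733. Without High 16 and Low 1, the bulls most distant for ENSBTAG00000005202, the first rho was -0.815. Leaving out High 15 and High 2, most distant for ENSBTAG00000012775, gave -0.791 for the second. Omitting High 6 and Low 11, most distant for ENSBTAG00000020164, gave -0.885 for the third. Only this last value leaves out Low 11.

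Average linkage on 1 minus rho, taken at a mean rho of 0.5, gave 51 clusters, of which 4 held at least 8 transcripts and 50 transcripts together. Set 1 held 18 transcripts with a mean rho of 0.651, 0.685 in High and 0.583 in Low. Set 2 held 13 (mean rho 0.608), set 3 held 11 (0.654) and set 4 held 8 (0.652). Sets 1 and 3 were opposed, with a mean rho of -0.488 between them, and sets 2 and 3 ran in parallel (0.471). These means between sets include Low 11 and were not computed without it. Without Low 11 the means within sets 1 to 4 were 0.681, 0.551, 0.593 and 0.605. Membership used all 18 bulls, so the values within a class are no independent check.

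**Figure D3:**
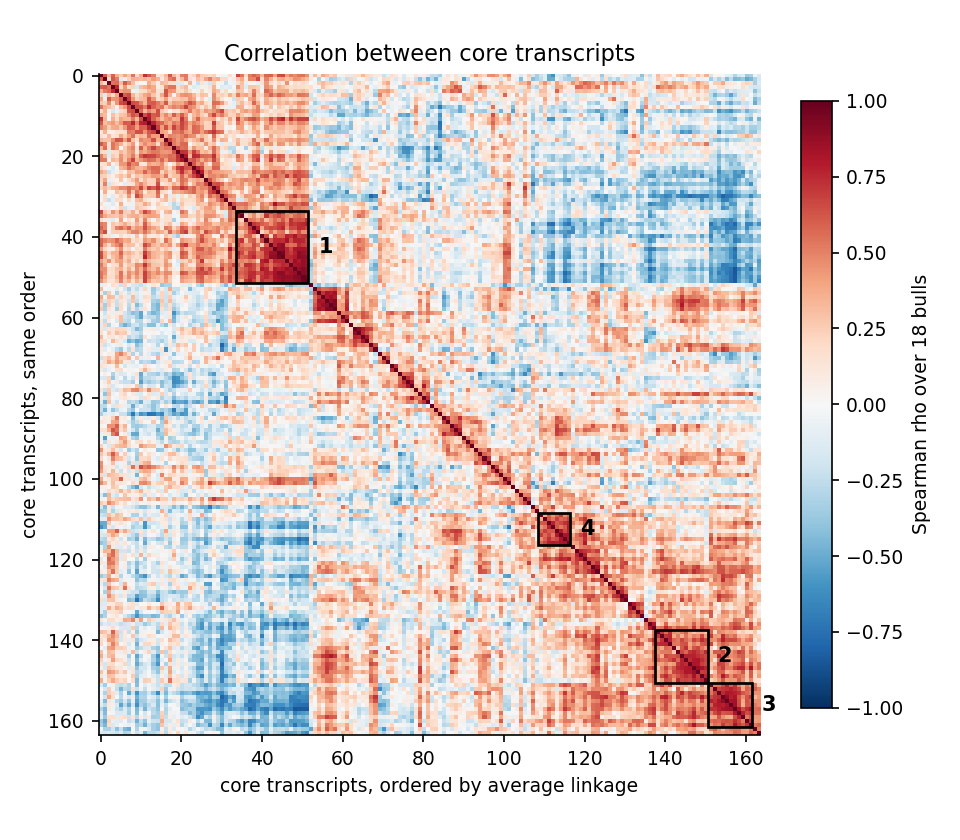
Spearman rho over 18 bulls between all pairs of the 164 core transcripts, ordered by average linkage (red positive, blue negative). Black squares mark sets 1 to 4, with mean rho inside them from 0.608 to 0.654. The block between sets 1 and 3 is blue, with a mean of -0.488.

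Set 1 was led by ENSBTAG00000012775 and ENSBTAG00000043979, with mean rho of 0.774 and 0.766 to the rest of the set. ENSBTAG00000012775 ran from 233 to 4062 in High (median 2555) and from 673 to 7745 in Low (median 3157). ENSBTAG00000043979 ran from 187 to 1387 in High (median 559) and from 111 to 3910 in Low (median 863). The set was highest in Low 1, at 1.65 log2 above its mean over bulls, and lowest in High 2, at -1.84.

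Set 3 was led by ENSBTAG00000020164 and ENSBTAG00000006107, and it also held ENSBTAG00000000421, the strongest core transcript, and the trace-level ENSBTAG00000053171. ENSBTAG00000006107 ran from 2171 to 14756 in High (median 7600) and from 598 to 12480 in Low (median 5721). The set stood at -3.28 log2 in Low 11 and at -1.54 in Low 13, and was highest in High 16 at 1.21. Set levels are not centred by library, and the core as a whole had a median of -1.11 log2 in Low 11 from the other bulls. Set 3 and set 1 were on opposite sides of their means in High 2, High 3, High 15, High 16, Low 7 and Low 20, where set 1 was low, and in High 6, High 10, Low 1, Low 5, Low 11 and Low 13, where set 3 was low.

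Set 2 was led by ENSBTAG00000002287 and ENSBTAG00000020264 and set 4 by ENSBTAG00000021151 and ENSBTAG00000030591. ENSBTAG00000002287 ran from 1359 to 18590 in High (median 5387) and from 425 to 8647 in Low (median 3025). ENSBTAG00000021151 ran from 5978 to 15011 in High (median 8972) and from 305 to 13138 in Low (median 7128), with Low 11 lowest. ENSBTAG00000030591 was much narrower, from 994 to 3427 in High and from 663 to 2604 in Low. Both sets had their lowest level in Low 11, at -2.69 and -1.90 log2, again not centred by library.

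**Figure D4:**
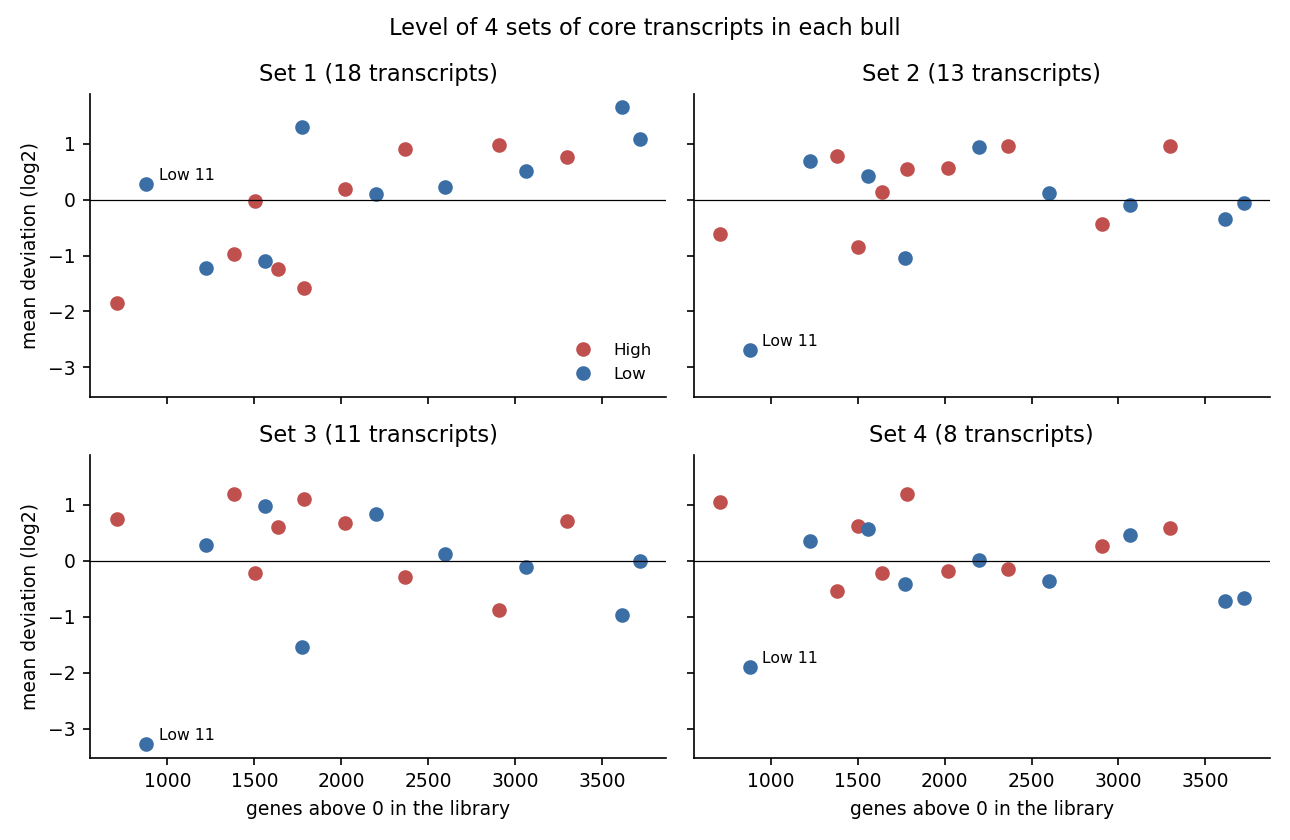
Mean deviation of the log2 signal from each transcript's mean over 18 bulls, for sets 1 to 4 (1 panel each), against the genes above 0 in the library. Each point is a bull, High in red and Low in blue, and levels are not centred by library. The transcripts of set 1 correlate with the number of genes at 0.333 to 0.756 (Spearman), and Low 11 lies at -2.69, -3.28 and -1.90 in sets 2, 3 and 4.

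Whether core signal followed the number of genes detected was tested with limma on log2(signal + 1) over all 1458 genes at 1 or more in at least 9 libraries, with fertility class as a covariate and Benjamini-Hochberg adjustment. Of the 164 core transcripts 8 were higher with more genes at an adjusted p under 0.05, or 4.88%, beside 14% of all genes tested, and 0 were lower, beside 0%. The share called in the core was below that in the whole table, and the difference was not tested. Without Low 11 the core again had 8 calls, beside 83 of 1425 genes, so the shares lay closer together. A gene at 0 in poor libraries is itself part of the number of genes, and no core transcript is at 0. Of the 8 called over all 18 libraries, 7 belonged to set 1, in which rho with the number of genes ran from 0.333 to 0.756.

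ENSBTAG00000003280 had the smallest p, with a slope of 1.04 log2 per 1000 genes (SE 0.288, adjusted p = 0.0268). Its signal ran from 485 to 4445 in High (median 3400) and from 672 to 13637 in Low (median 3211). ENSBTAG00000000335 came next, with a slope of 0.697 (SE 0.209, adjusted p = 0.0340). The most negative by p were ENSBTAG00000027024, at -0.507 (SE 0.406, adjusted p = 0.317), and ENSBTAG00000050652, at -0.369 (SE 0.336, adjusted p = 0.371), and neither passed. The calls changed with the setting. Core calls numbered 0 when columns were rescaled to a common sum (58 among all genes), when libraries were centred on the core (27), when no filter on low values was used (29), when the read total was added as a covariate (0) and without either High 2 (29) or Low 1 (0). Core slopes were above 0 in 135 of the 164 as deposited, in 121 with the read total, in 106 without Low 11, in 82 after rescaling and in 70 after centring. With the read total the median core slope stayed at 0.26 while the median half-width of its 95% interval went from 0.68 to 1.01.

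No core transcript was called between the fertility classes. In limma over the same 1458 genes, 0 of the 164 passed an adjusted p of 0.05, beside 0% of all genes tested, and 1 (0.610%) had an unadjusted p under 0.05, beside 2.74% of all. In no core transcript (0, beside 0% of all genes) were the classes without overlap. The core's median difference, High minus Low, was 0.07 log2 (lowest -1.26, highest 1.3), and that of all genes -0.25. Without Low 11 these medians were -0.01 and -0.57, and without High 2 they were 0.14 and 0.01. The 95% interval of a core transcript, before adjustment, reached 1.24 log2 to either side at the median. Adjustment over 1458 genes asks for larger differences still, so with 9 bulls per class differences above that size could also be missed.

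ENSBTAG00000020860 had the smallest p among those higher in High. Its signal was 3083 at the lowest, 5420 at the median and 11811 at the highest in High, against 714, 3009 and 11502 in Low. The bulls overlapped widely. High exceeded Low by 1.10 log2 (SE 0.48, 95% interval 0.13 to 2.08). The limma p was 0.0277 before adjustment and 0.994 after. ENSBTAG00000016779 followed, at 1.3 log2 (SE 0.71, adjusted limma p = 0.994), with a median of 1912 in High and 836 in Low.

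Among those lower in High, ENSBTAG00000005202 came first. It was 720 at the lowest, 2276 at the median and 7291 at the highest in High, against 1193, 7463 and 21494 in Low, and the bulls again overlapped. High minus Low was -1.12 log2 (SE 0.57, 95% interval -2.27 to 0.03), and the adjusted limma p was 0.994. ENSBTAG00000048468 followed at -1.16 log2 (SE 0.61, adjusted limma p = 0.994), with medians of 899 and 2006.

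The comparison was repeated on reads. edgeR's quasi-likelihood test called 0 core transcripts on the 7 libraries whose whole reads could be checked (beside 0% of 3079 genes), with 6 at an unadjusted p under 0.05 (beside 3.93% of all). On all 18 it called 0 (beside 0% of 1472 genes), with 3 unadjusted (beside 0.543%). DESeq2 on the 7 libraries (4 High, 3 Low) called 2 of the 164, beside 3.41% of 3079 genes (105), and 16 had an unadjusted p under 0.05, beside 5.88% of all. The 2 are named here after their values were seen. ENSBTAG00000027024 was higher in High by 3.0 log2 (SE 0.71, DESeq2 adjusted p = 0.00142), and ENSBTAG00000013524 lower, at -2.32 log2 (SE 0.58, DESeq2 adjusted p = 0.00221). Over all 18 bulls the first ran from 244 to 3161 in High and from 109 to 2335 in Low, and the second from 73.2 to 1718 and from 38.2 to 3154.

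The spread within each class was compared next. The median SD of log2 signal was 0.980 within High and 1.08 within Low, and it was larger in Low for 87 of the 164. Without Low 11 the Low median was 0.868, and the SD was larger in Low for 67. In limma on the absolute deviations from the class median, 0 core transcripts passed, beside 0% of all 1458 genes, and 2 (1.22%) had an unadjusted p under 0.05, beside 0.412% of all. ENSBTAG00000013450 deviated more in High by 0.43 log2 (SE 0.21, adjusted limma p = 1.0), with 863 in High 3 and 7142 in High 12 as its extremes against 1786 to 3750 in Low. ENSBTAG00000013772 deviated more in Low by 0.66 log2 (High minus Low -0.66, SE 0.33, adjusted limma p = 1.0), where Low 11 had 98 and the next Low bull 670.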

How the data were processed

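The authors deposited 1 table of normalised signal per gene for 20 libraries. The submitters' processing notes list the build UMD3.1 and, without saying what each did, STAR 2.6.1, edgeR 3.5, R 3.4, cutadapt 2.6 and FastQC 0.11.8. How reads were counted per gene, by strand or not and on which annotation, is not given in the sources used here. As deposited, each signal value is a whole number of reads times 1 factor per library (largest deviation from a whole read 0.0143), and 7 libraries (4 High, 3 Low) had enough low values for a formal check of this. Column sums differ, from 562479 in Low 11 to 1.395e+06 in High 14, so a value is not a share of the library. Near-identical genes may share reads.

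The core is every gene at 1 or more in 18 libraries. Spread is the SD of log2 signal, and correlation is Spearman's, over 18 libraries, with pandas 2.3.3 and scipy 1.17.1. Tests used limma 3.58.1 on log2(signal + 1), whose fold changes understate changes of low genes, for 1458 genes at 1 or more in at least 9 libraries, with Benjamini-Hochberg adjustment over all of them. The limma fits were first tried on simulated independent genes, with changes put in that were much larger than any seen in the core. Those runs do not show that changes of the size seen here would be called. Reads entered edgeR 4.0.16 and DESeq2 1.42.0 as alternatives.

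Transcripts named are the 8 highest by median, the 4 lowest and 4 highest by SD, the 3 highest and 3 lowest pairs by rho, the 2 smallest p per direction of each limma comparison (1 for spread), the 2 lowest minima, the 2 leaders of each set of at least 8, and 2 genes just outside the threshold. Members and lists were chosen with earlier results of these data known. Marker lists of sperm, leukocytes, epithelium, seminal plasma, somatic testis cells, mitochondria and ribosomes could not be applied, since 0 identifiers matched a symbol. Each library is 1 bull, and the labels give no batch.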

Additional observations from a re-analysis of the deposited data

Results flagged for a closer look

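In 78 groups of 9 libraries (3 measures per library and 36 named transcripts, in High and in Low), 13 had an extreme library farther from its neighbour than Dixon's 95% criterion allows, where chance gives about 1 in 20. Of these, 8 were the lowest Low value in Low 11. They were the rho with the other bulls (0.516) and the signals of ENSBTAG00000000222 (3.15), ENSBTAG00000000421 (2058), ENSBTAG00000008457 (1.45), ENSBTAG00000013772 (98.03), ENSBTAG00000020264 (1762), ENSBTAG00000021151 (305) and ENSBTAG00000038298 (176). In High 16, ENSBTAG00000008457 (86.8) and ENSBTAG00000018636 (3.33) lay far below the other High bulls. ENSBTAG00000050652 did so in High 3 (308) and ENSBTAG00000053875 in High 2 (1.79). The median core signal of High 14 (2018) was the only value set apart as a highest. High 14 also had the highest summed signal over all genes (1.395e+06) and Low 11 the lowest (562479). The flagged signals were not corrected for that. Several of these transcripts were named for their high SD, so their distance is partly what chose them.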

How the results depend on the processing

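The median SD of log2 signal was 0.863 by the interquartile range and 0.946 to 1.06 when each library was left out in turn, lowest without Low 11. The median rho was 0.00516 with columns rescaled to a common sum, 0.0134 with libraries centred on the core, and 0.0441 to 0.0833 with single libraries left out. DESeq2 called 2 core transcripts between High and Low, among 105 of 3079 genes (3.41%), while the 9 other alternatives and all 18 omissions of a library gave 0, as did every alternative for the spread within classes. Calls for the slope on genes detected numbered 5 with a pseudocount of 10, 2 when only genes at 1 or more in all 18 libraries were tested, and 0 with no filter, with rescaling, with centring, or with the read total as a covariate. They ranged from 0 to 11 over the omissions, with 0 without High 2 or Low 1, 1 without High 6 or High 14, 2 without Low 4 or Low 18, 3 without High 10 or Low 20, 4 without Low 5, and 5 without High 16 or Low 7. The cause was not tested. The core held 116 to 193 transcripts under other thresholds and 164 to 212 with single libraries left out. The edgeR test on 18 libraries was chosen after seeing the data. No paired analysis was possible because High and Low share no replicate number.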
